A study of Mus musculus with 6 samples.

Results

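The genes described here are 10 members of the chemokine system, 5 receptors (Ccr1, Ccr2, Cxcr2, Cxcr4 and Cx3cr1) and 5 ligands (Ccl6, Ccl9, Cxcl2, Cxcl9 and Pf4), selected by gene symbol from a table of 11489 genes. All 10 were in the table. Their RNA was measured by sequencing in F4/80+ cells that flow cytometry separated from mouse bone marrow into Epor-eGFP+ cells (3 libraries) and Epor-eGFP- cells (3 libraries). Epor encodes the erythropoietin receptor and eGFP reports its expression, while F4/80, the product of Adgre1, is a surface protein of mouse macrophages. The labels call the cells of both groups erythroblastic island macrophages, that is, the macrophages on which erythroblasts mature. They give no strain, age, treatment or construct of the reporter. Nothing in them ties a library to an animal of its own, so p-values reflect the spread among 3 libraries a group, part or all of which may be technical.

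Chemokines are small secreted proteins that steer the movement of leukocytes through receptors with a seven-span membrane fold coupled to inhibitory G proteins. The receptors signal through the G protein subunits, a phosphoinositide 3-kinase and Rac exchange factors, and are switched off by receptor kinases, arrestins and regulators of G protein signalling. In the bone marrow, Cxcr4 and its ligand Cxcl12 hold leukocytes in place, Cxcr2 promotes the release of neutrophils, and Ccr2 the release of monocytes.

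Values are FPKM, fragments scaled to transcript length and library size as the authors deposited them, so levels of different genes can be compared per length. Differences are log2 fold changes of FPKM + 1, Epor-eGFP+ minus Epor-eGFP-, and a gene was called where its limma adjusted p over all 10964 genes tested was below 0.05. Libraries are named by the numbers 0 to 2 in their column names. The read depth behind the values is unknown. The labelled marker genes were present: Epor was at 6.67, 3.43 and 7.78 FPKM in Epor-eGFP+ libraries 0 to 2, against 0.375, 0.414 and 0.217 FPKM in Epor-eGFP- libraries 0 to 2, and Adgre1 was at 143, 117 and 241 FPKM in Epor-eGFP+ libraries 0 to 2, against 136, 132 and 139 FPKM in Epor-eGFP- libraries 0 to 2. Of 12 macrophage markers, 9 were called higher in Epor-eGFP+ cells and none lower (3 had no call). Among all genes tested, 22.7% were called higher and 26.3% lower. Transcripts of other cell types were abundant in both groups, with 11 neutrophil markers summing to between 13221 and 17189.9 FPKM in Epor-eGFP+ libraries and between 24767 and 39033 FPKM in Epor-eGFP- libraries. The 9 eosinophil markers summed to between 6908 and 15271 FPKM in Epor-eGFP+ libraries and between 13616 and 22140 FPKM in Epor-eGFP- libraries. Of these 9, 6 were called lower and 2 higher, and 1, Prg2, had no call and was listed at 0 in Epor-eGFP+ library 0. The 4 promyelocyte markers (Mpo, Elane, Prtn3 and Ctsg) were all called higher in Epor-eGFP+ cells. They summed to 7926, 9353 and 7532 FPKM in Epor-eGFP+ libraries 0 to 2, against 1484, 2673 and 1428 FPKM in Epor-eGFP- libraries 0 to 2. Of 9 erythroid markers, 7 were called higher and 2 had no call.

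Upstream sequences of the 5 ligand genes are printed here because they stand for the 3 outcomes seen: Ccl6 and Ccl9 fell, Pf4 and Cxcl9 rose, and Cxcl2 had no call. Each is the 250 bases before the gene start from RefSeq (GRCm38.p6), 5′ to 3′ on the strand of the gene. All 10 genes were matched there by symbol, but the window given for Ccr2 lies inside the span of the gene, so matches are described for the other 9. Capitals mark every match, on either strand, to any of 8 motifs. The longer ones are TTCNNNGAA for STAT factors, TTGCNNAA for C/EBP factors, GGAATTTCC for NF-kB and GAAANNGAA for interferon response factors. Erythroid and megakaryocyte GATA factors are represented by the letters AGATAA. The macrophage factor PU.1 and other Ets factors are represented by GAGGAA and, in a shifted form that can overlap it, by the letters AGGAAG. The core promoter element known as the TATA box was searched as TATAAA.
Ccl6, chr11:83593088-83593337, minus strand: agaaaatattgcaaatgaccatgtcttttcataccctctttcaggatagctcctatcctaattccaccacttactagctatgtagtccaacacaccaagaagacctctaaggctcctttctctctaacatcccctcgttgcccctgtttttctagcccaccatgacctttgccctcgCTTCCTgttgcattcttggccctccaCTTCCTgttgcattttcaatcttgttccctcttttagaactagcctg
Ccl9, chr11:83578637-83578886, minus strand: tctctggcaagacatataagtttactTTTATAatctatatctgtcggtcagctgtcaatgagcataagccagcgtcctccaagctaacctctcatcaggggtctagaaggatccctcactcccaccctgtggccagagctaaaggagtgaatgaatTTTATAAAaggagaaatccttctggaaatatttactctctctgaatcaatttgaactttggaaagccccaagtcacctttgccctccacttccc
Pf4, chr5:90772185-90772434, plus strand: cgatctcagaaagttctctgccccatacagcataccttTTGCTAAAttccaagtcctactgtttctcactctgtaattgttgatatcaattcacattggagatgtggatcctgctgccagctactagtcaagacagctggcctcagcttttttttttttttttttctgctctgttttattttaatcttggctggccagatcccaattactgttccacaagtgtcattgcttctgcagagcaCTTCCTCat
Cxcl9, chr5:92328080-92328329, minus strand: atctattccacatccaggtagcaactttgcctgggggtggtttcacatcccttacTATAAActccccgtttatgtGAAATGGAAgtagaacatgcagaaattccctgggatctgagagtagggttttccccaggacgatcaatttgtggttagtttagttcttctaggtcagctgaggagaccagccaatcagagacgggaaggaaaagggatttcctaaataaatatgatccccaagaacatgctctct
Cxcl2, chr5:90903649-90903898, plus strand: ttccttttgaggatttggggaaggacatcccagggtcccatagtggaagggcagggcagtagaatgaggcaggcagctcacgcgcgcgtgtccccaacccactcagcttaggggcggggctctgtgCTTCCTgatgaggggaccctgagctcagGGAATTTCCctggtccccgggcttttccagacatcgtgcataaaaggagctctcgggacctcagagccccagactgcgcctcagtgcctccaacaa

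The NF-kB letters were found 96 bases before the start of Cxcl2, and in 94 of 32851 upstream windows of the same length (0.286%). The interferon response letters were found 175 bases before the start of Cxcl9 and in 7.13% of all windows. AGGAAG occurred on the opposite strand 73 and 47 bases before the start of Ccl6, and on the opposite strand 9 bases before that of Pf4, where it overlaps a GAGGAA match. It was also found 124 bases before the start of Cxcl2 on the opposite strand and in Cxcr2, and GAGGAA also in Ccr1 and Cxcr2, while 29.5% of all windows hold AGGAAG and 23.3% hold GAGGAA. TTGCNNAA was found in Pf4 among the 9 genes and in 9.56% of all windows. TATAAA was found in Ccl9, Cxcl9 and Cxcr4 and in 12.4% of all windows. It began 224 and 94 bases before the start of Ccl9 on the opposite strand, and 92 bases before it on the gene's strand. For Cxcl9 it began 195 bases before the start. For Cxcr4 it began 32 bases before the start on the opposite strand and 30 bases before it on the gene's strand. Neither AGATAA, in 9.99% of all windows, nor TTCNNNGAA, in 7.02%, was in any of the 9. These matches describe the letters in the windows and were not tested for binding.

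Ccl6 (chr11:83587886-83593087) and Ccl9 (chr11:83572917-83578636) are neighbours on the minus strand of chromosome 11, 9249 bases apart. Their closest stretch without gaps, searched from 250 bases before to 25 bases after the gene start, was 24 bases long with 20 identical bases (83.3%), shown in capitals. It lies 59 to 36 bases before the start of Ccl6 and begins 18 bases before that of Ccl9, running 6 bases past it.
Ccl6, chr11:83593123-83593146, minus strand: CTTgGCCCTCCACTTCCtgtTGCA
Ccl9, chr11:83578631-83578654, minus strand: CTTtGCCCTCCACTTCCcacTGCA

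Of the 10 genes, all passed the filter on low values, 7 were called lower in Epor-eGFP+ cells, 2 higher and 1 had no call. The 7 that fell were the 5 receptors and the ligands Ccl6 and Ccl9, on the ratio of mean FPKM from 1.65-fold for Cxcr2 to 3.35-fold for Ccr2. Pf4 and Cxcl9 rose by 3.75- and 3.55-fold. Across all genes tested, 49.0% were called, 26.3% lower and 22.7% higher in Epor-eGFP+ cells. The median log2 fold change of the 10 was −1.07, and that of all genes tested was −0.01. Because the 10 were chosen with earlier results of these data known, these comparisons with all genes are descriptions only. The groups did not overlap in 9 of the 10 genes, and in 60.4% of all genes tested. Over 3 against 3 libraries the exact two-sided permutation p was 0.1, the smallest possible, for those 9 and 0.6 for Cxcl2. In bulk cells, fewer cells of a type and less RNA per cell cannot be told apart.

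**Figure D1:**
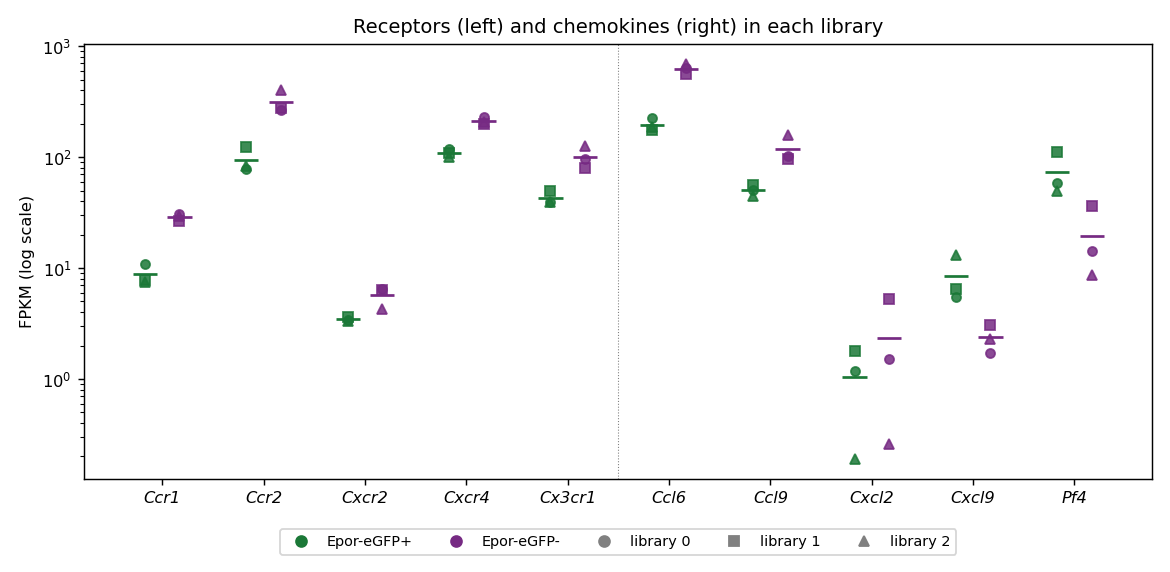
FPKM of the 5 receptor genes and the 5 chemokine genes in each library (log axis), Epor-eGFP+ in green left of Epor-eGFP- in purple, with symbols for the library number and a line at each mean. The 5 receptors, Ccl6 and Ccl9 lie lower in all Epor-eGFP+ libraries, Cxcl9 and Pf4 lie higher, and the Cxcl2 points overlap.

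Ccr2, the receptor for Ccl2 through which inflammatory monocytes leave the marrow, was at 78.2, 123 and 83.2 FPKM in Epor-eGFP+ libraries 0 to 2, against 268, 280.4 and 404 FPKM in Epor-eGFP- libraries 0 to 2. Every Epor-eGFP+ library was below every Epor-eGFP- library, and library 2 was the highest of the Epor-eGFP- libraries. The means were 94.7 ± 24.5 FPKM in Epor-eGFP+ cells and 317 ± 75.3 FPKM in Epor-eGFP- cells (SD, n = 3 each; log2 fold change −1.74, SE 0.22, limma adjusted p = 0.00130). Cx3cr1, the receptor for the membrane-bound chemokine Cx3cl1 and a marker of monocytes and many tissue macrophages, was at 39.6, 49.6 and 39.0 FPKM in Epor-eGFP+ libraries 0 to 2, against 96.7, 80.1 and 127 FPKM in Epor-eGFP- libraries 0 to 2. It too was highest in library 2 among Epor-eGFP- libraries and in library 1 among Epor-eGFP+ libraries, and fell (log2 fold change −1.21, SE 0.18, limma adjusted p = 0.00221). Ccr2 and Cx3cr1 ran together over the 6 libraries (Pearson r = 0.99, a description that includes the group difference). Against 26.3% of all genes tested, 8 of 9 monocyte markers other than these receptors were called lower, and 1, Plac8, had no call. Their summed level was 2733, 3096 and 2519.8 FPKM in Epor-eGFP+ libraries 0 to 2, against 5565, 5263 and 6524 FPKM in Epor-eGFP- libraries 0 to 2, with the same highest library in each group as Ccr2 and Cx3cr1, and none was listed at 0. Their part in the fall of the receptors was not tested.

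Ccr1, a receptor for Ccl3, Ccl5, Ccl6 and Ccl9, was at 10.9, 7.82 and 7.54 FPKM in Epor-eGFP+ libraries 0 to 2, against 30.5, 26.8 and 29.5 FPKM in Epor-eGFP- libraries 0 to 2. The groups stood well apart, and the fall was 3.30-fold on the ratio of means (log2 fold change −1.63, SE 0.14, limma adjusted p = 0.000463). Its ligand genes Ccl6 and Ccl9 fell with it. Cxcr4, the receptor for Cxcl12, was at 119.6, 108 and 100 FPKM in Epor-eGFP+ libraries 0 to 2, against 232, 198 and 206 FPKM in Epor-eGFP- libraries 0 to 2. The fall was 1.94-fold with little spread between libraries (log2 fold change −0.95, SE 0.10, limma adjusted p = 0.000707), and Cxcr4 stayed among the 3 most abundant of the 10 genes in both groups. Over the 6 libraries, Ccr1 correlated with both Ccl6 and Cxcr4 at r = 0.99, again including the group difference.

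Cxcr2, the receptor for Cxcl1, Cxcl2 and Ppbp on neutrophils, was at 3.41, 3.61 and 3.31 FPKM in Epor-eGFP+ libraries 0 to 2, against 6.53, 6.32 and 4.24 FPKM in Epor-eGFP- libraries 0 to 2. This was the smallest called difference of the 10 (log2 fold change −0.57, SE 0.15, limma adjusted p = 0.0178), and the lowest Epor-eGFP- library, library 2, lay closest to the Epor-eGFP+ libraries. The call was lost without Epor-eGFP+ library 0 (adjusted p = 0.0580), Epor-eGFP- library 0 (0.0650) or Epor-eGFP- library 1 (0.0535). Against 26.3% of all genes tested, 10 of 11 neutrophil markers were called lower, 1 (Mmp9) had no call and none was listed at 0. Their sum was 13988, 17189.9 and 13221 FPKM in Epor-eGFP+ libraries 0 to 2, against 39033, 33588 and 24767 FPKM in Epor-eGFP- libraries 0 to 2, and within each group it was lowest in library 2, as Cxcr2 was. Their part in the fall of Cxcr2 was not tested.

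Ccl6 was the most abundant of the 10 in both groups, at 224, 178 and 186 FPKM in Epor-eGFP+ libraries 0 to 2, against 636, 557 and 696 FPKM in Epor-eGFP- libraries 0 to 2. Ccl6 and Ccl9 are CC chemokines of mouse myeloid cells. The Ccl6 means were 196 ± 24.6 FPKM in Epor-eGFP+ cells and 629.8 ± 69.6 FPKM in Epor-eGFP- cells (SD, n = 3 each; log2 fold change −1.68, SE 0.12, limma adjusted p = 0.000334). Ccl9 was at 51.0, 56.5 and 44.5 FPKM in Epor-eGFP+ libraries 0 to 2, against 103, 96.5 and 158 FPKM in Epor-eGFP- libraries 0 to 2, with Epor-eGFP- library 2 the highest. It fell (log2 fold change −1.19, SE 0.19, limma adjusted p = 0.00318), by 2.35-fold on the ratio of means, against 3.22-fold for its neighbour Ccl6. The difference between these 2 falls was not tested.

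Pf4, platelet factor 4, is a CXC chemokine stored in platelet granules and made by megakaryocytes. It was at 58.8, 112 and 50.0 FPKM in Epor-eGFP+ libraries 0 to 2, against 14.3, 36.0 and 8.67 FPKM in Epor-eGFP- libraries 0 to 2. The lowest Epor-eGFP+ library lay above the highest Epor-eGFP- library, and library 1 was the highest in both groups. The means were 73.7 ± 33.7 FPKM in Epor-eGFP+ cells and 19.7 ± 14.4 FPKM in Epor-eGFP- cells (SD, n = 3 each; log2 fold change 1.99, SE 0.51, limma adjusted p = 0.0173). The call was lost without Epor-eGFP- library 0 (log2 fold change 1.89, adjusted p = 0.0595). Without Epor-eGFP- library 1, the highest of its group, the ratio of means was 6.42, against 3.75 with all libraries.

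Other platelet genes did not follow Pf4 in full. Ppbp, the platelet chemokine gene 2371 bases away from Pf4 on chromosome 5, was at 2.46, 4.06 and 0.881 FPKM in Epor-eGFP+ libraries 0 to 2, against 1.83, 9.30 and 1.85 FPKM in Epor-eGFP- libraries 0 to 2, with overlapping groups and no call (log2 fold change −0.44, SE 0.57, limma adjusted p = 0.547). Of 10 megakaryocyte and platelet markers tested, Clec1b, a platelet receptor, was called higher (1.64, SE 0.31, limma adjusted p = 0.00509), none was lower and 9 had no call. Clec1b was at 4.81, 2.32 and 7.30 FPKM in Epor-eGFP+ libraries 0 to 2, against 0.728, 0.738 and 0.741 FPKM in Epor-eGFP- libraries 0 to 2. Unlike Pf4, it was lowest in library 1 among Epor-eGFP+ libraries. The sum of the 11 markers in the table was 71.3, 88.6 and 48.0 FPKM in Epor-eGFP+ libraries 0 to 2, against 48.3, 69.8 and 28.3 FPKM in Epor-eGFP- libraries 0 to 2, also highest in library 1 of each group, and none was listed at 0. Itga2b, the platelet integrin chain and the most abundant of them, was at 35.7 ± 9.34 FPKM in Epor-eGFP+ cells and 27.5 ± 9.71 FPKM in Epor-eGFP- cells and had no call (adjusted p = 0.310). The part of platelet or megakaryocyte transcripts in the rise of Pf4 was not tested.

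Cxcl9, a ligand of Cxcr3 that interferon gamma induces, was at 5.45, 6.53 and 13.3 FPKM in Epor-eGFP+ libraries 0 to 2, against 1.72, 3.10 and 2.29 FPKM in Epor-eGFP- libraries 0 to 2. All Epor-eGFP+ libraries lay above all Epor-eGFP- libraries, with library 2 at more than double the other Epor-eGFP+ libraries. The means were 8.41 ± 4.23 FPKM in Epor-eGFP+ cells and 2.37 ± 0.691 FPKM in Epor-eGFP- cells (SD, n = 3 each; log2 fold change 1.41, SE 0.31, limma adjusted p = 0.00897). Its receptor gene Cxcr3 was at 3.16, 2.29 and 6.13 FPKM in Epor-eGFP+ libraries 0 to 2, against 3.40, 1.89 and 2.27 FPKM in Epor-eGFP- libraries 0 to 2 and had no call (adjusted p = 0.285). Cxcl10, the gene 18558 bases from Cxcl9 that encodes another Cxcr3 ligand, had no call and an estimate of opposite sign (log2 fold change −0.38, SE 0.25, adjusted p = 0.246). Cxcl10 was called lower without Epor-eGFP- library 0 (adjusted p = 0.0113), and was chosen after its values were seen. The summed level of the 12 macrophage markers was 3544, 2271 and 7506 FPKM in Epor-eGFP+ libraries 0 to 2, against 733, 621 and 845 FPKM in Epor-eGFP- libraries 0 to 2, highest in library 2 of each group. In Epor-eGFP- library 2, most of this sum came from Csf1r, Cd68 and Adgre1, at 353, 250 and 139 FPKM. Cxcl9 was also highest in library 2 among Epor-eGFP+ libraries. Among Epor-eGFP- libraries, Cxcl9 was highest in library 1, where the sum was lowest. Whether the rise of these markers and that of Cxcl9 go together was not tested.

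**Figure D2:**
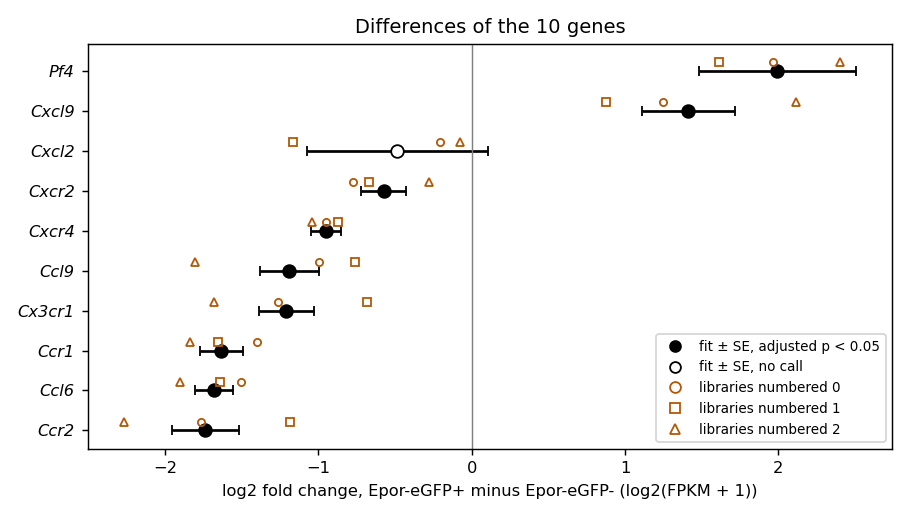
Log2 fold change of each of the 10 genes, Epor-eGFP+ minus Epor-eGFP- on the log2(FPKM + 1) scale, as black points with the SE of the fit (filled where called), and the difference between libraries of the same number as open orange symbols. Filled points reach from −1.74 for Ccr2 to 1.99 for Pf4, and the sign is the same for all 3 numbers in each of the 10 genes.

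Cxcl2, a ligand of Cxcr2 that inflammatory signals induce, was the least abundant and the most variable of the 10. It was at 1.17, 1.79 and 0.190 FPKM in Epor-eGFP+ libraries 0 to 2, against 1.51, 5.26 and 0.258 FPKM in Epor-eGFP- libraries 0 to 2. The groups overlapped and the difference had no call (log2 fold change −0.48, SE 0.59, limma adjusted p = 0.521). Both groups had their top value in library 1 and their bottom value in library 2. The same order, library 1 above 0 above 2, held in both groups for Ccl3 and Ccl4, inducible CC chemokines, and for Rgs1, which dampens G protein signals (Ccl4 and Rgs1 were chosen after their values were seen). Ccl3 was at 17.8, 23.5 and 6.20 FPKM in Epor-eGFP+ libraries 0 to 2, against 17.4, 39.1 and 15.6 FPKM in Epor-eGFP- libraries 0 to 2, without a call (adjusted p = 0.344). Rgs1 was at 17.8, 22.1 and 3.93 FPKM in Epor-eGFP+ libraries 0 to 2, against 9.18, 12.7 and 2.00 FPKM in Epor-eGFP- libraries 0 to 2, higher in Epor-eGFP+ cells at every number, and had no call (adjusted p = 0.407), while the fit with the library number as a replicate block called it higher (adjusted p = 0.00166). Of the 58 tested genes among the 10 and the lists of the pathway, 9 (15.5%) had this order in both groups, Pf4 among them, and so had 12.5% of all genes tested.

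**Figure D3:**
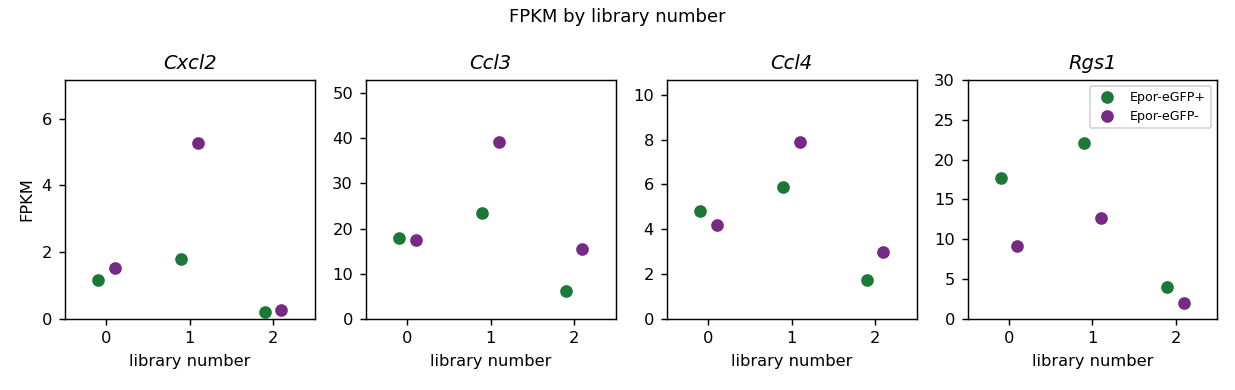
FPKM of Cxcl2, Ccl3, Ccl4 and Rgs1 by library number, Epor-eGFP+ in green left of Epor-eGFP- in purple. For each gene, library 1 is at the top of its group and library 2 at the bottom, and Rgs1 is higher in Epor-eGFP+ at each number.

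The order of levels differed between the groups. In Epor-eGFP+ cells Ccl6 came first, at a mean of 196 FPKM, and stood apart from the next gene. Cxcr4, Ccr2, Pf4, Ccl9 and Cx3cr1 followed, each overlapping its neighbour. Ccr1 and Cxcl9 formed an overlapping pair below them, and Cxcr2 and then Cxcl2 were lowest. In Epor-eGFP- cells the order was Ccl6, Ccr2, Cxcr4, Ccl9, Cx3cr1, Ccr1, Pf4, Cxcr2, Cxcl9 and Cxcl2, where Ccl9 overlapped Cx3cr1, Ccr1 overlapped Pf4 and Cxcl9 overlapped Cxcl2. Pf4 thus had rank 4 in Epor-eGFP+ cells and rank 7 in Epor-eGFP- cells.

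Among 22 other CC chemokine genes, 8 were tested, of which 2 rose, 1 fell and 5 had no call (median log2 fold change −0.05). This share of 37.5% called stands beside 49.0% of all genes tested. Ccl8 was at 3.47, 2.25 and 11.4 FPKM in Epor-eGFP+ libraries 0 to 2, against 0.220, 0.237 and 0.201 FPKM in Epor-eGFP- libraries 0 to 2, far above in every Epor-eGFP+ library (log2 fold change 2.21, SE 0.45, limma adjusted p = 0.00726), and was highest in library 2, as Cxcl9 was. Ccl24, a ligand of the eosinophil receptor Ccr3, was at 4.90, 2.67 and 2.58 FPKM in Epor-eGFP+ libraries 0 to 2, against 0.678, 0.435 and 0.376 FPKM in Epor-eGFP- libraries 0 to 2 (log2 fold change 1.52, SE 0.21, limma adjusted p = 0.00184). In Epor-eGFP- cells the means of Ccl8 and Ccl24 were 0.219 and 0.496 FPKM. Both genes thus passed the filter on low values only through the Epor-eGFP+ libraries, where they are high. Ccl5, a ligand of Ccr1, was at 9.69 ± 0.951 FPKM in Epor-eGFP+ cells and 15.6 ± 4.45 FPKM in Epor-eGFP- cells and fell (log2 fold change −0.60, SE 0.19, limma adjusted p = 0.0343). Its call was lost without Epor-eGFP+ library 0 (adjusted p = 0.111), 1 (0.0602) or 2 (0.0508) and without Epor-eGFP- library 0 (0.0655) or 2 (0.0725). Ccl2, the ligand of Ccr2, was at 2.41 ± 0.865 FPKM in Epor-eGFP+ cells and 2.29 ± 0.648 FPKM in Epor-eGFP- cells without a call (adjusted p = 0.901). Ccl7 and Ccl12 were not in the table of genes, so they were not analysed here.

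Among 14 other CXC, XC and CX3C chemokine genes, 5 were tested, of which 2 rose, 1 fell and 2 had no call (median log2 fold change −0.38). This share of 60% called stands beside 49.0% of all genes tested. Cxcl16, a membrane-bound ligand of Cxcr6, was at 12.3, 13.2 and 15.0 FPKM in Epor-eGFP+ libraries 0 to 2, against 1.94, 2.93 and 2.23 FPKM in Epor-eGFP- libraries 0 to 2, with tight groups far apart (log2 fold change 2.11, SE 0.13, limma adjusted p = 0.000265). Cxcl12, the ligand of Cxcr4, was at 2.67, 4.62 and 4.64 FPKM in Epor-eGFP+ libraries 0 to 2, against 0.458, 1.01 and 0.868 FPKM in Epor-eGFP- libraries 0 to 2. It rose (log2 fold change 1.47, SE 0.21, limma adjusted p = 0.00195) where Cxcr4 fell, and its level stayed well under that of the receptor gene. The Cxcl12 mean in Epor-eGFP- cells was 0.779 FPKM, so it passed the filter on low values only through the Epor-eGFP+ libraries. Xcl1, a chemokine of lymphocytes, was at 1.40, 1.01 and 0.916 FPKM in Epor-eGFP+ libraries 0 to 2, against 6.81, 3.29 and 2.63 FPKM in Epor-eGFP- libraries 0 to 2 and fell (log2 fold change −1.24, SE 0.28, limma adjusted p = 0.0105). Cxcl1 and Cx3cl1 were not in the table of genes, so they were not analysed here.

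No other chemokine receptor was called among 4 tested of 13 listed (median log2 fold change 0.09; limma, and 0 also at an unadjusted p under 0.05). Ccr3 was at 66.0, 36.5 and 123 FPKM in Epor-eGFP+ libraries 0 to 2, against 49.3, 40.3 and 36.5 FPKM in Epor-eGFP- libraries 0 to 2, wide within Epor-eGFP+ and overlapping (log2 fold change 0.67, SE 0.39, limma adjusted p = 0.200), and was called higher without Epor-eGFP+ library 1 (adjusted p = 0.0201). Ccr7, a receptor of dendritic cells and lymphocytes, was at 3.57 ± 0.470 FPKM in Epor-eGFP+ cells and 4.65 ± 2.20 FPKM in Epor-eGFP- cells without a call (adjusted p = 0.568) and was called lower without Epor-eGFP- library 1 (0.0139). The receptor genes Ccr1, Ccr3 and Ccr2 lie in that order within chr9:123962126-124109140 (GRCm38), and of these Ccr1 and Ccr2 were called lower. Atypical receptors as a class bind chemokines without G protein signalling. Of the 5 genes listed with them, Ccrl2 was the 1 tested. It was at 5.73 ± 1.93 FPKM in Epor-eGFP+ cells and 5.10 ± 1.82 FPKM in Epor-eGFP- cells without a call (limma adjusted p = 0.708).

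Genes that act below the receptors mostly fell. Of 17 tested, 11 fell, 1 rose and 5 had no call (median log2 fold change −0.59). With the library number as a replicate block 14 fell, the added genes being Gnai3, a G protein alpha subunit, the phospholipase gene Plcb2 and the GTPase gene Rac1 (adjusted p = 0.0147, 0.0126 and 0.0128; named after their values were seen). Of the 11, the largest falls were those of Pik3r6 and Pik3r5, regulatory subunits of the phosphoinositide 3-kinase that G proteins activate, and Gng2, a G protein gamma subunit. Pik3r6 was at 7.78 ± 0.678 FPKM in Epor-eGFP+ cells and 21.4 ± 3.22 FPKM in Epor-eGFP- cells (log2 fold change −1.34, SE 0.12, limma adjusted p = 0.000505). Pik3r5 fell by 0.98 and Gng2 by 0.84 on the log2 scale (SE 0.12 and 0.09). Gng12, another gamma subunit, rose (log2 fold change 0.44, SE 0.11, limma adjusted p = 0.0146), a call lost without Epor-eGFP+ library 0 (adjusted p = 0.0507). Of 13 genes of receptor desensitization tested, 8 fell and 5 had no call (median log2 fold change −0.53), and none rose (limma, and 0 also at an unadjusted p under 0.05). Grk5, a receptor kinase, was at 5.73 ± 0.774 FPKM in Epor-eGFP+ cells and 18.6 ± 6.26 FPKM in Epor-eGFP- cells (log2 fold change −1.50, SE 0.21, limma adjusted p = 0.00197). Rgs14 and Rgs2, regulators of G protein signalling, fell by 1.36 and 1.25 on the log2 scale (SE 0.10 and 0.10). These shares of 70.6% and 61.5% called stand beside 49.0% of all genes tested.

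**Figure D4:**
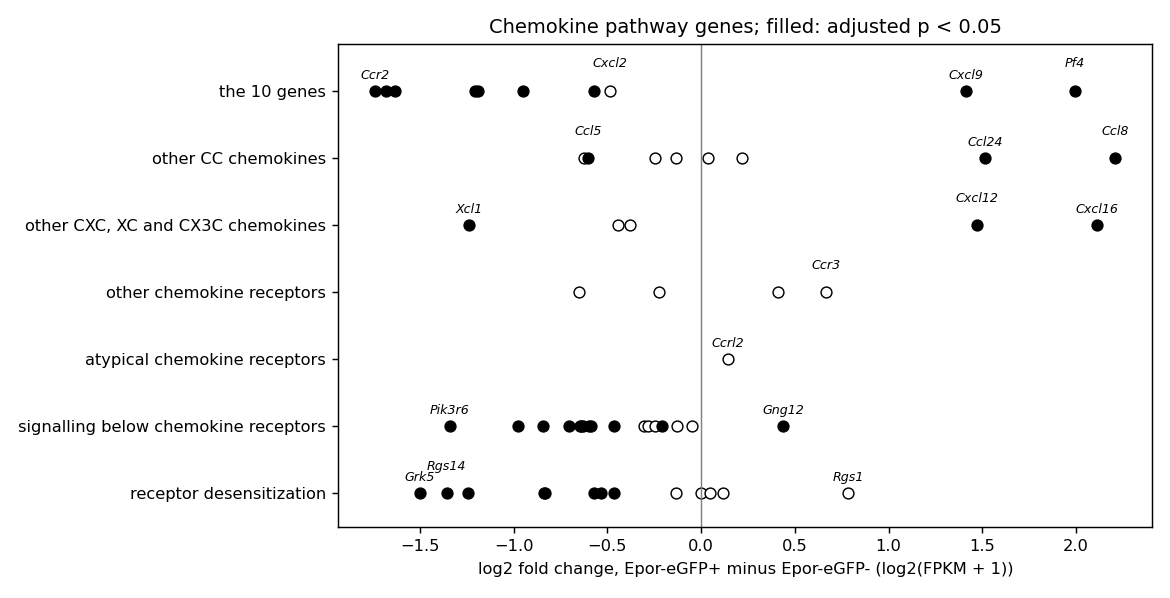
Log2 fold change, Epor-eGFP+ minus Epor-eGFP- on the log2(FPKM + 1) scale, of the 10 genes and of every tested gene of the 6 pathway lists, a point per gene, filled where the limma adjusted p is below 0.05. Called chemokines lie on both sides of 0, from −1.68 for Ccl6 to 2.21 for Ccl8, while the called receptors all lie below it.

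The genes whose levels ran most like each of the 10 over the 6 libraries, among 6256 genes averaging 10 FPKM or more, are given as a description, since all 6 libraries carry the group difference. For Ccr1 they were Mapkapk5 (r = 0.999) and Cyp4f18 (r = 0.998), and for Ccr2 Ptpro (r = 0.999) and Hp (r = 0.998). Cxcr2 was followed by Ppm1a (r = 0.987) and Fem1c (r = 0.986), and Cxcr4 by Gcnt2 (r = 0.999) and Itprip (r = 0.998). For Cx3cr1 they were Vgll4 (r = 0.999) and Fam49b (r = 0.998). Among the ligands, Ccl6 was closest to Csnk2b (r = 0.999) and Snx20 (r = 0.998), and Ccl9 to Usb1 (r = 0.997) and S100a4 (r = 0.996). S100a4 is 1 of the monocyte markers. Cxcl9 was closest to Isoc1 (r = 0.994) and Vps29 (r = 0.993), Pf4 to Tuba4a (r = 0.998) and Suv39h1 (r = 0.998), and Cxcl2 to Irf2bp2 (r = 0.980) and Scrib (r = 0.978). A high r says nothing of the size of a difference, since Mapkapk5 was at a mean of 15.1 FPKM in Epor-eGFP+ cells and 16.3 FPKM in Epor-eGFP- cells.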

How the data were processed

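The deposited table holds FPKM values per gene for 6 libraries, per the file header. The submitters' processing notes name the mouse build mm10 and, with no role or order, Cufflinks 2.2.1, TopHat2 2.1.0, Trimmomatic 0.35 and bcl2fastq 2.19.1.403. The annotation and filters are not stated in the sources at hand. Total FPKM per library ran from 467176 to 519650. FPKM hold no read counts, so no counting interval is given, and Cufflinks divides reads between similar genes by estimation.

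Column names give a group and a number from 0 to 2 that is not the number in the labels, so columns were assigned to groups only. Same-numbered libraries deviated together from their group means (r = 0.25, 0.38 and 0.35), so the numbers were treated as pairs in an alternative fit with a replicate block.

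Differences were tested with limma 3.58.1 (R 4.3.3) on log2(FPKM + 1), for the 10964 genes averaging 1 FPKM or more, by group alone, with a mean-variance trend, two-sided tests and Benjamini-Hochberg adjustment over all of them (threshold 0.05). The fit was tested on simulated data. Exact permutation tests used scipy 1.17.1.

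The members and lists were chosen with earlier results of these data known. Named genes are the 10 members, known partners, and up to 3 called genes per direction of each list with the largest absolute fold change, or, in a list without calls, the 2 most abundant. One of the receptors listed is not reported here and is left out of the counts of its list. Any other gene is marked as chosen after seeing its values. Alternatives changed the pseudocount, filter, scaling, trend, block and libraries. RefSeq upstream windows are of GRCm38.p6, which mm10 also names.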

Additional observations from a re-analysis of the deposited data

How the results depend on the processing

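No direction of the 10 genes reversed in the alternatives that tested them, and 8 kept their side of the threshold. These were 16 alternatives (15 for Cxcr2 and 14 for Cxcl2, which the filter on low values left out of the rest). The other genes were Cxcr2, lost in 3 fits that leave out a library, and Pf4, lost in 1. Cxcl2 was not tested without Epor-eGFP- library 1, where its direction turned. Its means were then 1.05 FPKM in Epor-eGFP+ cells and 0.884 FPKM in Epor-eGFP- cells. The ratio of these means was 1.19, against 0.449 with all libraries. The replicate block changed no call of the 10, giving adjusted p from 0.00126 for Ccl6 to 0.142 for Cxcl2. Without single libraries, the number of the 10 called higher ran from 1 to 2 and lower from 6 to 7, genes called higher from 1611 to 2428 against 2489, and genes called lower from 2060 to 2700 against 2883. Rescaling to a common total raised the share of higher calls among all calls to 59.5%, against 46.3%, and moved the median of all genes from −0.01 to 0.08.

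For the other lists, leaving out single libraries gave 2 to 3 higher and 0 to 1 lower CC chemokines, 1 to 2 lower CXC, XC and CX3C chemokines, 0 to 1 higher and 0 to 2 lower receptors (Ccr7 and Cxcr5 without Epor-eGFP- library 1), and 0 to 1 higher signalling genes. Without both libraries numbered 2, 0 CC chemokines were lower and 1 desensitization gene, Rgs1, was higher. With a mean of at least 5 FPKM, fewer genes were tested, and 0 CC chemokines and 1 CXC chemokine were higher and 0 CXC, XC or CX3C chemokines lower. With the replicate block, 1 desensitization gene (Rgs1) was called higher, 14 signalling genes were lower, against 11, and genes called numbered 3066 higher and 3335 lower. The count of lower signalling genes was also 14 without both libraries numbered 2. With no filter on low values, 1 atypical receptor, Ackr1, was called higher. The cause of these changes was not tested otherwise. Depth is unknown, so genes near 1 FPKM, Cxcl2 among them, are the least certain.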
